A study of Mus musculus with 6 samples.

Results

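Cholesterol synthesis in the heart was followed through 8 genes of the sterol pathway. These genes were chosen by name from the textbook pathway, with earlier results of these data known. The 8 are the synthesis enzymes *Hmgcs1*, *Idi1*, *Fdft1*, *Sqle*, *Lss* and *Cyp51*, the transcription factor gene *Srebf2*, and *Insig1*, whose protein holds that factor back. They are 8 of 54232 genes in the count files, and all 8 were among the 14133 genes with enough counts to be tested. The libraries were made from heart ventricle mRNA of wild-type (WT) C57BL/6J mice, 3 given Tributyrin and 3 given vehicle. All 6 mice had been on western diet (WD), a chow rich in fat and sucrose that also contains cholesterol, for 15 weeks before treatment. Tributyrin is glycerol carrying butyrate chains. By the study's methods it was needle-fed at 5 g/kg body weight, with days on and days off treatment in turn, for 3 weeks. The control mice received vehicle, which the labels call PBS, and their values serve as the background. The age of these mice is not in the labels. The study used both sexes, and these libraries were all of male type (*Ddx3y* between 1802 and 2241 normalized counts, *Xist* between 0 and 6.24).

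Each library is 1 mouse and held between 20369746 and 32734485 counts on genes. Values per mouse are normalized read counts, that is, counts divided by a size factor for the library. The tissue label fitted its markers: the 8 cardiomyocyte markers summed to between 1.41e+06 and 1.46e+06 normalized counts with vehicle and between 1.34e+06 and 1.49e+06 with Tributyrin, while the 5 adipocyte markers together stayed between 14.9 and 78.6. Vehicle mice 1 and 2 stood apart for the sum of the atrial markers, which was 4604 and 4395 there. It was 1409 in vehicle mouse 3 and between 800.4 and 1647 with Tributyrin. The markers did not all follow the sum. *Nppa* was at 554 and 485 in vehicle mice 1 and 2, at 1046 in vehicle mouse 3 and at 295, 416 and 731 with Tributyrin. *Bmp10*, a defining atrial marker, was at or below 1.04 in all 6 libraries and above 0 only in vehicle mice 1 and 2. Log2 fold changes of the 8 genes that moved by over 1.5 times or turned their sign when vehicle mice 1 and 2 were left out are given with and without them.

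Cells make cholesterol from acetyl-CoA through mevalonate, isoprenoid diphosphates, squalene and lanosterol. When sterols in the endoplasmic reticulum are low, SCAP carries SREBP2, the product of *Srebf2*, to the Golgi, where it is cut and its released part enters the nucleus and switches on the genes of this route and of cholesterol uptake. When sterols are plentiful, INSIG proteins hold SCAP and SREBP2 back, and INSIG1 is itself made from a target gene, which closes the loop. Heart muscle can both make cholesterol and take it up from lipoproteins, and cardiomyocytes need it for their extensive membranes.

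SREBP2 binds a short sterol response element (SRE), usually next to sites for NF-Y (the CCAAT box) and Sp1 (the GC box). Promoter windows of 300 bases around the start site, from RefSeq on GRCm38.p6, were at hand for 6 of the 8 genes, without *Fdft1* and *Sqle*. The letters TCACNCCA, searched on both strands as the SRE, stood in the windows of *Hmgcs1* and *Srebf2*, 2 of 6, against 4.36% of all 32851 windows. CCAAT stood in 6 of 6 against 37.4% of all windows, and GGGCGG in 6 of 6 against 35.7%. None of these motifs overlapped another of the 3 in the stretches printed here, which are shown because the 8 genes are named as SREBP2 targets: *Hmgcs1* and *Srebf2* for the SRE beside a CCAAT box, *Insig1* and *Lss* for a CCAAT box with no SRE letters in the window. Capitals mark the SRE and the CCAAT box, the latter read as ATTGG on the other strand.
Hmgcs1, chr13:119690160-119690236, plus strand: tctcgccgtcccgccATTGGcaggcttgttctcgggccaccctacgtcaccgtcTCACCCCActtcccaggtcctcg
Srebf2, chr15:82147092-82147153, plus strand: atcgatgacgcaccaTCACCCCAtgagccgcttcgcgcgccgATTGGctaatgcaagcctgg
Insig1, chr5:28071181-28071215, plus strand: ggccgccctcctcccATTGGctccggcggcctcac
Lss, chr10:76531528-76531562, plus strand: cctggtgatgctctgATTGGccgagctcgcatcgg
In *Hmgcs1* the SRE began 137 bases before the start site and in *Srebf2* 162 bases before it. A match is a description of the letters and not of a bound site.

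Per kilobase of annotated exon, the 8 genes fell into a high and a low set in these hearts. *Fdft1*, squalene synthase, led with a mean of 237 normalized counts per kb over the 6 mice (range 210 to 287). *Hmgcs1*, HMG-CoA synthase at the head of the mevalonate route, followed at 157, and *Insig1* at 133, and the ranges of these 2 genes overlapped. *Srebf2* stood at 106 and *Cyp51*, the lanosterol demethylase, at 54.7. The low set lay 8.37-fold under *Cyp51*: *Idi1*, the isopentenyl diphosphate isomerase, at 6.54, *Lss*, lanosterol synthase, at 5.84, and *Sqle*, squalene epoxidase, at 5.83, with overlapping ranges between neighbours. The median of all tested genes was 74.8, so 4 of the 8 genes lay above it, and *Fdft1* was at the 76.4 percentile and *Sqle* at 7.94. Per kb of the longest coding transcript a gap remained under *Cyp51*, then at 61.5. The order inside the low set changed to *Lss* 13.5, *Sqle* 11.7 and *Idi1* 7.57. In the high set *Insig1* and *Srebf2* then stood at 152 and 150, and their ranges overlapped.

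**Figure D1:**
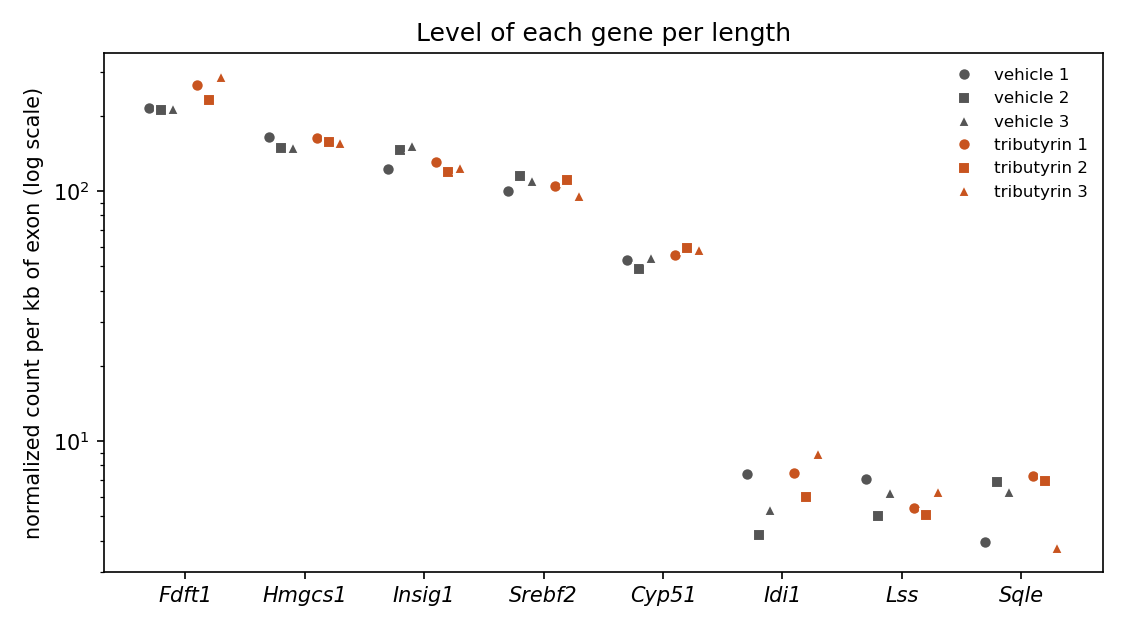
Normalized counts per kb of merged exon (log scale) for the 8 genes, with a point for each of the 6 mice, vehicle in grey and Tributyrin in orange. *Fdft1* to *Cyp51* lie between 48.8 and 287 and the other genes between 3.72 and 8.84, and only for *Fdft1* and *Cyp51* do all orange points lie above all grey ones.

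Between the groups the 8 genes split in direction, and whether they move together was not tested. Of the 8 genes, 5 were above 0 and 3 below 0 on the log2 scale with Tributyrin over vehicle, with a median log2 fold change of 0.061, against -0.0013 over all tested genes. By the quasi-likelihood test of edgeR, with p-values adjusted over the 14133 genes (Benjamini-Hochberg), 0 of the 8 genes passed an FDR of 10%, as did 0% of all genes, and the smallest adjusted p of any gene was 0.999. At an unadjusted p under 0.05, edgeR found 600 genes (1.97% of those tested higher and 2.28% lower), of which 1 was among the 8, *Fdft1*, in the higher direction. DESeq2 called 11 genes at 10%, none of the 8 among them, and 460 at an unadjusted p under 0.05. All 3 Tributyrin mice lay above all 3 vehicle mice for 2 of the 8 genes, *Fdft1* and *Cyp51*, where 4.26% of tested genes did so, and none of the 8 lay apart in the lower direction, where 4.65% of tested genes did. In bulk tissue a change in the share of a cell type and a change in RNA per cell cannot be told apart.

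**Figure D2:**
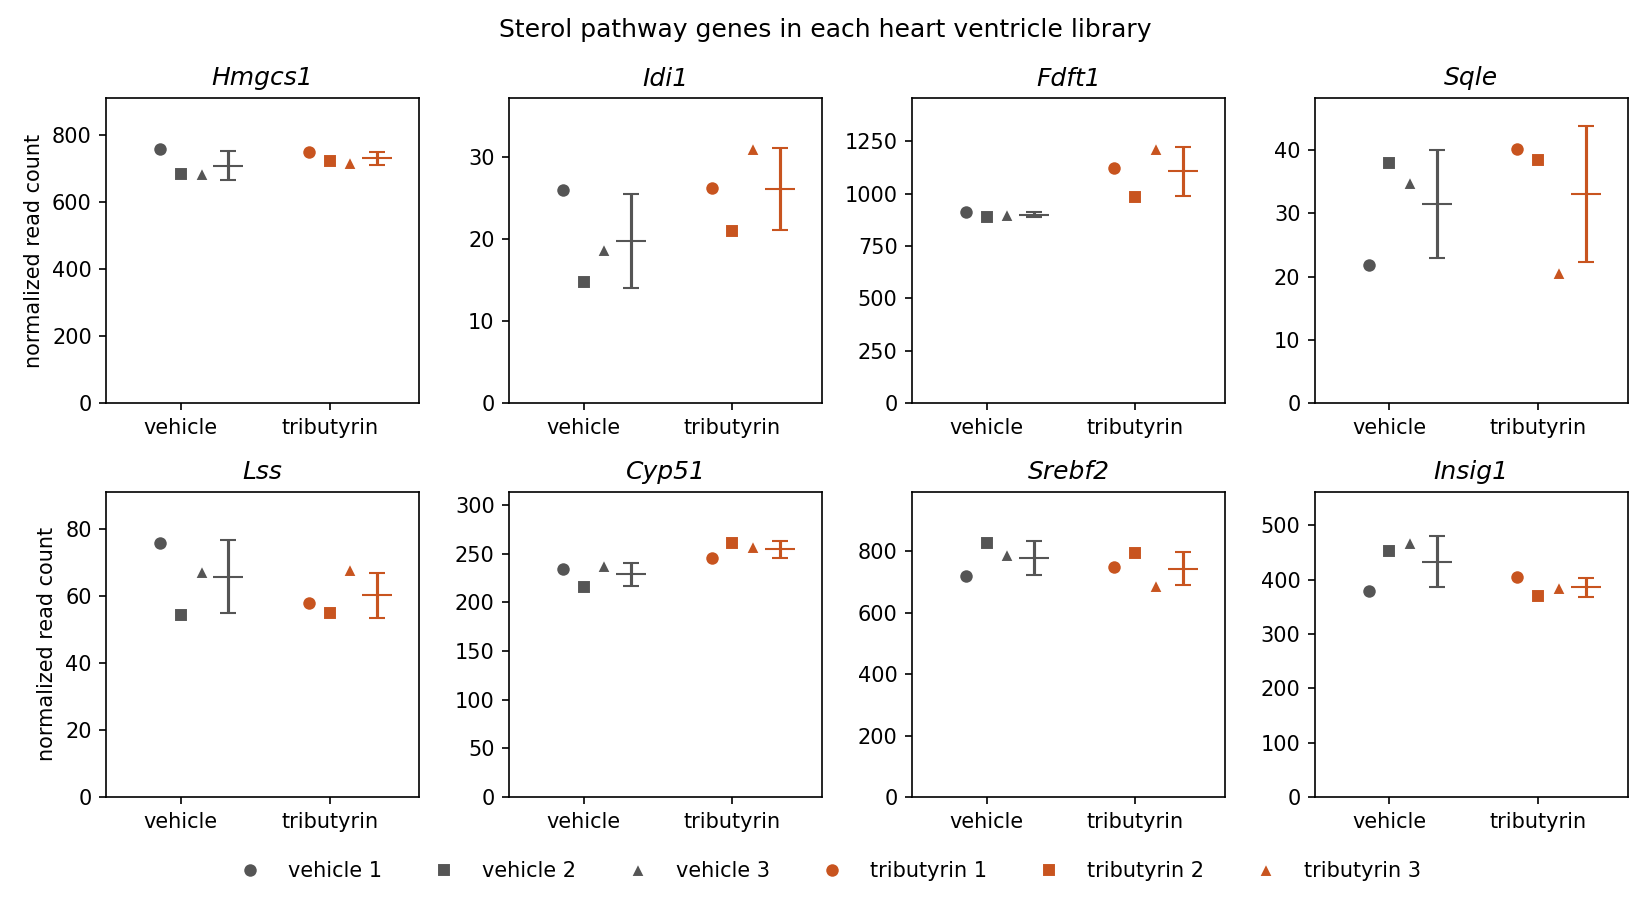
Normalized read counts of the 8 genes in each of the 6 mice on linear axes that start at 0, with the mean and SD of the 3 mice of each group beside the points. *Fdft1* runs from 889 to 912 with vehicle and from 982 to 1214 with Tributyrin, while 6 of the 8 genes overlap between groups.

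*Fdft1* encodes squalene synthase, which joins farnesyl diphosphates into squalene and so commits the route to sterols. Its normalized counts were 912, 889 and 898 in the vehicle mice and 1122, 982 and 1214 in the Tributyrin mice. The vehicle mice were nearly alike and the Tributyrin mice spread more widely, and every Tributyrin mouse was above every vehicle mouse. The group means were 899.7 ± 11.2 and 1106 ± 117 (SD, n = 3 each), a difference of 206.3 with a standard error of 67.6, or 22.9% of the vehicle mean. The log2 fold change was 0.30 (standard error 0.087, 95% confidence interval 0.11 to 0.49), which is an increase of between 7.57% and 40.4%. Its unadjusted p in edgeR's model was 0.00612, the rank 79 of 14133 genes, and its adjusted p was 0.999. The exact two-sided permutation test gave p = 0.1, the smallest that 3 mice against 3 allow. *Fdft1* therefore did not pass the threshold across genes.

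The size of the *Fdft1* difference held in the alternatives, where the log2 fold change ran from 0.22 to 0.38, but its adjusted p ran from 0.224 to 1.0 and never passed. Without vehicle mice 1 and 2, the pair with a high sum of atrial markers, the log2 fold change was 0.30. In that fit only 1 vehicle mouse remained, and its level, 898, lay between those of vehicle mice 1 and 2. Between 723 and 1200 reads were counted on the gene per library, which by counting alone gives a coefficient of variation of 2.89% to 3.72%. The vehicle mice varied by 1.24% and the Tributyrin mice by 10.5%, so the vehicle spread was below the counting error, and the standard error from edgeR, which also draws on other genes, was used. In GENCODE M21 (GRCm38) the gene takes up 63145150 to 63179578 of chromosome 14, minus strand, with 11 merged exons. Its exons share 774 bases with *Ctsb*, the gene for cathepsin B, on the opposite strand, which had up to 17204 counts per library. The sources used here do not say whether counting used strand, and without strand their reads cannot be told apart there. *Ctsb* itself had a log2 fold change of 0.05 (standard error 0.070). Its normalized counts were 12309, 13340 and 12517 with vehicle and 12708, 12947 and 13935 with Tributyrin. Its part in the *Fdft1* values was not tested. A processed pseudogene, *Gm6781*, matches 1249 bases of *Fdft1* at 97.4% identity and had at most 4 counts.

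*Cyp51* encodes lanosterol 14-alpha-demethylase, the first step after lanosterol. It stood at 234, 216 and 237 with vehicle and at 245, 261 and 257 with Tributyrin. The groups did not overlap, though the lowest Tributyrin mouse was close to the highest vehicle mouse. The means were 228.9 ± 11.7 and 254.4 ± 8.45 (SD, n = 3 each), a difference of 25.5 or 11.1%. The log2 fold change of 0.16 had a standard error of 0.105 and an interval from -0.08 to 0.39, with an unadjusted edgeR p of 0.167 and an exact permutation p of 0.1. Without vehicle mice 1 and 2 it was 0.097 (edgeR unadjusted p 0.596). The separation depends on scaling, since with library size alone 1 of the 8 genes lay apart, *Fdft1*, and *Cyp51* overlapped. *Cyp51* is on the minus strand of chromosome 5 (4081145 to 4104746) and shares 166 exonic bases with *Akap9* on the other strand, whose log2 fold change was -0.02 (edgeR unadjusted p 0.890).

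*Hmgcs1*, which condenses acetoacetyl-CoA and acetyl-CoA to HMG-CoA, was even across the hearts. It measured 759, 683 and 683 with vehicle and 751, 724 and 716 with Tributyrin, with vehicle mouse 1 the highest of all. Its log2 fold change was 0.045 (standard error 0.080, 95% confidence interval -0.13 to 0.22, edgeR unadjusted p 0.587), and the exact permutation p was 0.6. The interval leaves room for a change of between -8.79% and 16.7%. Without vehicle mice 1 and 2 its log2 fold change was 0.093 (edgeR unadjusted p 0.514), and with library size alone in place of TMM it was -0.026, so its direction is not settled by these data. The gene is on the plus strand of chromosome 13, from 119690379 to 119708260.

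The other 3 enzymes were measured with few reads. *Idi1* converts isopentenyl diphosphate to its isomer and had 26.0, 14.7 and 18.6 normalized counts with vehicle and 26.2, 21.0 and 30.97 with Tributyrin. The Tributyrin values sat toward the upper end and overlapped the vehicle values. Its log2 fold change, 0.40, was the highest of the 8 genes and had one of the widest errors (standard error 0.323, 95% confidence interval -0.31 to 1.12, exact permutation p 0.2), and the raw counts were 15 to 28 per library. *Sqle*, the squalene epoxidase and a rate-limiting step of the sterol branch, had 21.8, 38.0 and 34.8 with vehicle and 40.2, 38.4 and 20.6 with Tributyrin. Each group held 1 low mouse, and the log2 fold change of 0.08 had an interval from -0.65 to 0.80 (exact permutation p 0.7), and it was -0.059 without vehicle mice 1 and 2. Raw counts of *Sqle* were 18 to 49, and a change of between -36.2% and 74.7% was not distinguishable at this depth.

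*Lss* closes oxidosqualene into lanosterol, the first sterol of the route. Its normalized counts were 75.9, 54.3 and 67.1 with vehicle and 58.0, 54.8 and 67.7 with Tributyrin. The groups overlapped along nearly their whole range, and the log2 fold change was -0.12 (95% confidence interval -0.58 to 0.33, exact permutation p 0.7). *Idi1* lies on chromosome 13 (8885501 to 8892451), *Sqle* on chromosome 15 (59315077 to 59331192) and *Lss* on chromosome 10 (76531588 to 76557138), all on the plus strand. The *Idi1* transcript has a processed pseudogene, *Gm13502*, identical over 684 bases, with at most 1 count, and reads shared by identical copies may be missing from the count of *Idi1*.

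*Srebf2* encodes the factor that drives these enzymes. It measured 720, 829 and 788 with vehicle and 750, 795 and 688 with Tributyrin, and the groups overlapped. The means were 779.0 ± 54.8 and 744.4 ± 53.5 (SD, n = 3 each), and the log2 fold change was -0.06 (standard error 0.089, 95% confidence interval -0.26 to 0.13, exact permutation p 0.5). SREBP2 is controlled mainly by cleavage of the protein, which RNA does not measure. The gene spans 82147181 to 82205379 on the plus strand of chromosome 15 and carries the microRNA gene *Mir33*, which had 0 counts in these mRNA libraries.

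*Insig1*, a sensitive SREBP2 target and the retention factor of the loop, lay the other way from *Fdft1*. It measured 379, 453 and 468 with vehicle and 405, 370 and 384 with Tributyrin. Vehicle mouse 1 fell among the Tributyrin mice, and the other vehicle mice were above all of them. The means were 433.5 ± 47.5 and 386.4 ± 17.5 (SD, n = 3 each), 10.9% lower as a point estimate, and the log2 fold change was -0.16 (standard error 0.107, 95% confidence interval -0.40 to 0.07) and an exact permutation p of 0.3. Without vehicle mouse 1 edgeR gave a log2 fold change of -0.25 with an unadjusted p of 0.0479 and an adjusted p of 0.997. With each other mouse left out in turn, the unadjusted edgeR p was 0.140 to 0.404. Without vehicle mice 1 and 2 together the log2 fold change was -0.28 and the unadjusted edgeR p 0.106. *Insig1* lies on the plus strand of chromosome 5, from 28071363 to 28078662.

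**Figure D3:**
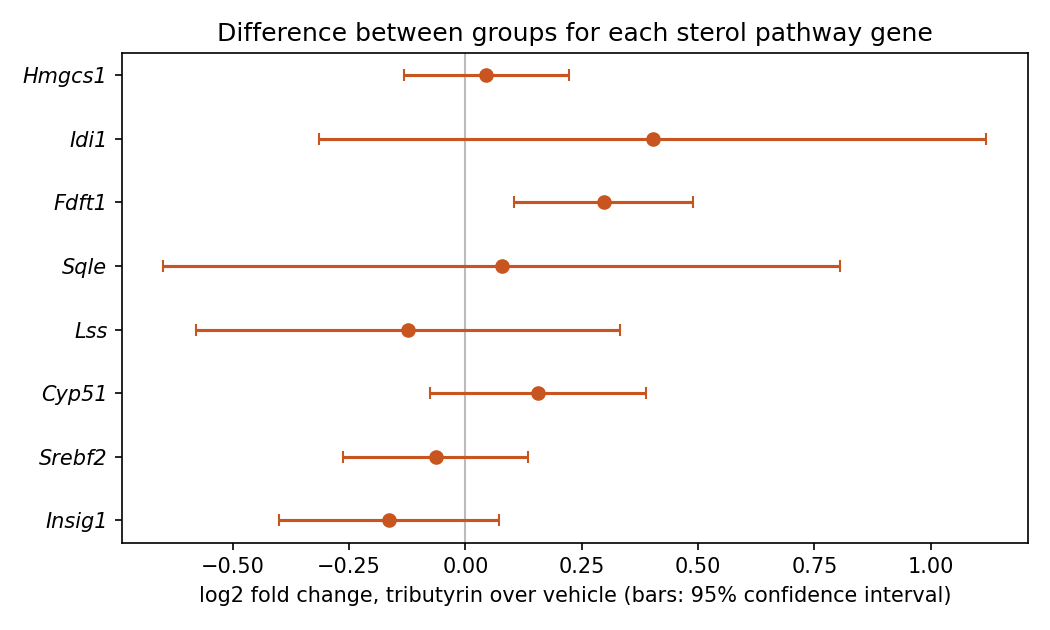
Log2 fold change, Tributyrin over vehicle, of each of the 8 genes from edgeR, with bars for the 95% confidence interval. The interval lies above 0 only for *Fdft1* (0.11 to 0.49), and those of *Idi1* and *Sqle* are the widest.

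Ratios of *Fdft1* to the other 7 genes within each library do not depend on how libraries are scaled. *Fdft1* over *Hmgcs1* was 1.20, 1.30 and 1.31 with vehicle and 1.49, 1.36 and 1.70 with Tributyrin. Over *Insig1* it was 2.40, 1.96 and 1.92 with vehicle and 2.77, 2.65 and 3.16 with Tributyrin. All Tributyrin mice were above all vehicle mice in both ratios and in the ratio to *Lss* (exact permutation p = 0.1 each). For 4 of the 7 genes the ratios overlapped: *Cyp51*, *Srebf2*, *Idi1* and *Sqle*, with exact permutation p of 0.4, 0.2, 0.6 and 0.6. *Fdft1* was chosen for this comparison after its values were seen. All 7 ratios share it, so they partly restate its own separation, and their p-values are no further support for it.

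Across mice, the mean of the 8 genes on the log2 scale, each centred on its own mean, was -0.036, -0.080 and 0.0011 with vehicle and 0.090, 0.0071 and 0.017 with Tributyrin. All Tributyrin values were above all vehicle values by a small margin, which is given as a description with no test. This order rests on the scaling used. With library size alone the median log2 fold change of the 8 genes was -0.0092. Vehicle mouse 2 had the lowest value of all 6 mice for 5 of the 8 genes. The genes outside the pathway lists whose levels followed this mean most closely, by Pearson's r over the 6 mice among 10182 genes with a mean of at least 100 normalized counts, were *Tmem56* (0.991), *Rsrc2* (0.985), *Dusp23* (0.980), *Thap2* (0.979) and *Ift22* (0.975). They were picked as the highest of many over 6 points.

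The rest of the sterol network was counted from lists of 50 other genes, of which 49 were tested. For these, 21 log2 fold changes were above 0 and 28 below, with a median of -0.022, and 0 had an unadjusted edgeR p under 0.05 (against 1.97% higher and 2.28% lower over all genes). The 16 other enzymes of cholesterol synthesis split evenly, 8 above 0 and 8 below, with a median of -0.0084. Of the 7 other enzymes up to farnesyl and geranylgeranyl diphosphate, 4 were above 0, from 0.25 for *Fdps* to -0.22 for *Mvd*. *Fdps* makes the substrate of squalene synthase and was measured with few reads (standard error 0.323, edgeR unadjusted p 0.462). Of the 9 other enzymes between lanosterol and cholesterol, 4 were above 0 and 5 below. *Dhcr7*, the last reductase of one of its branches, was the highest at 0.08 (standard error 0.118).

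Among the 10 other genes of SREBP processing and of sterol-regulated degradation, 2 were above 0 and 8 below, with a median of -0.039. *Srebf1*, whose product SREBP1 serves fatty acid synthesis more than sterols, was the highest at 0.26 (standard error 0.130, edgeR unadjusted p 0.0739), and *Rnf145*, a ubiquitin ligase, the lowest at -0.07. The *Srebf1* means were 1722 ± 173 and 2058 ± 410 normalized counts (SD, n = 3 each), and the groups overlapped. Of the 7 tested genes of uptake and transport, 4 were above 0, and they ran from 0.08 for *Lipa*, the lysosomal acid lipase, to -0.17 for *Tmem97*. *Scarb1*, the receptor for HDL, was at 731.6 ± 21.3 with vehicle and 652.7 ± 40.1 with Tributyrin (SD, n = 3 each). Its groups did not overlap, and its log2 fold change of -0.16 had a standard error of 0.082 and an unadjusted edgeR p of 0.0715.

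For LXR receptors, cholesterol efflux and storage, 3 of 8 genes were above 0 and 5 below, from 0.05 for *Apoe*, an apolipoprotein, to -0.18 for *Abcg1*, a cholesterol exporter. For the branches to dolichol, ubiquinone and prenylated proteins, 4 of 8 were above 0, from 0.14 for *Coq2*, an enzyme of ubiquinone synthesis, to -0.13 for *Pggt1b*, a prenyltransferase subunit. Of the 49 tested genes, 3 had groups that did not overlap, all lower with Tributyrin: *Scarb1*, *Abcg1* and *Nr1h2*, the gene of LXR beta (4.65% of tested genes were apart in this direction). *Scarb1*, *Abcg1* and *Nr1h2* were singled out after their values were seen, and none of the 49 genes passed the test in either direction.

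**Figure D4:**
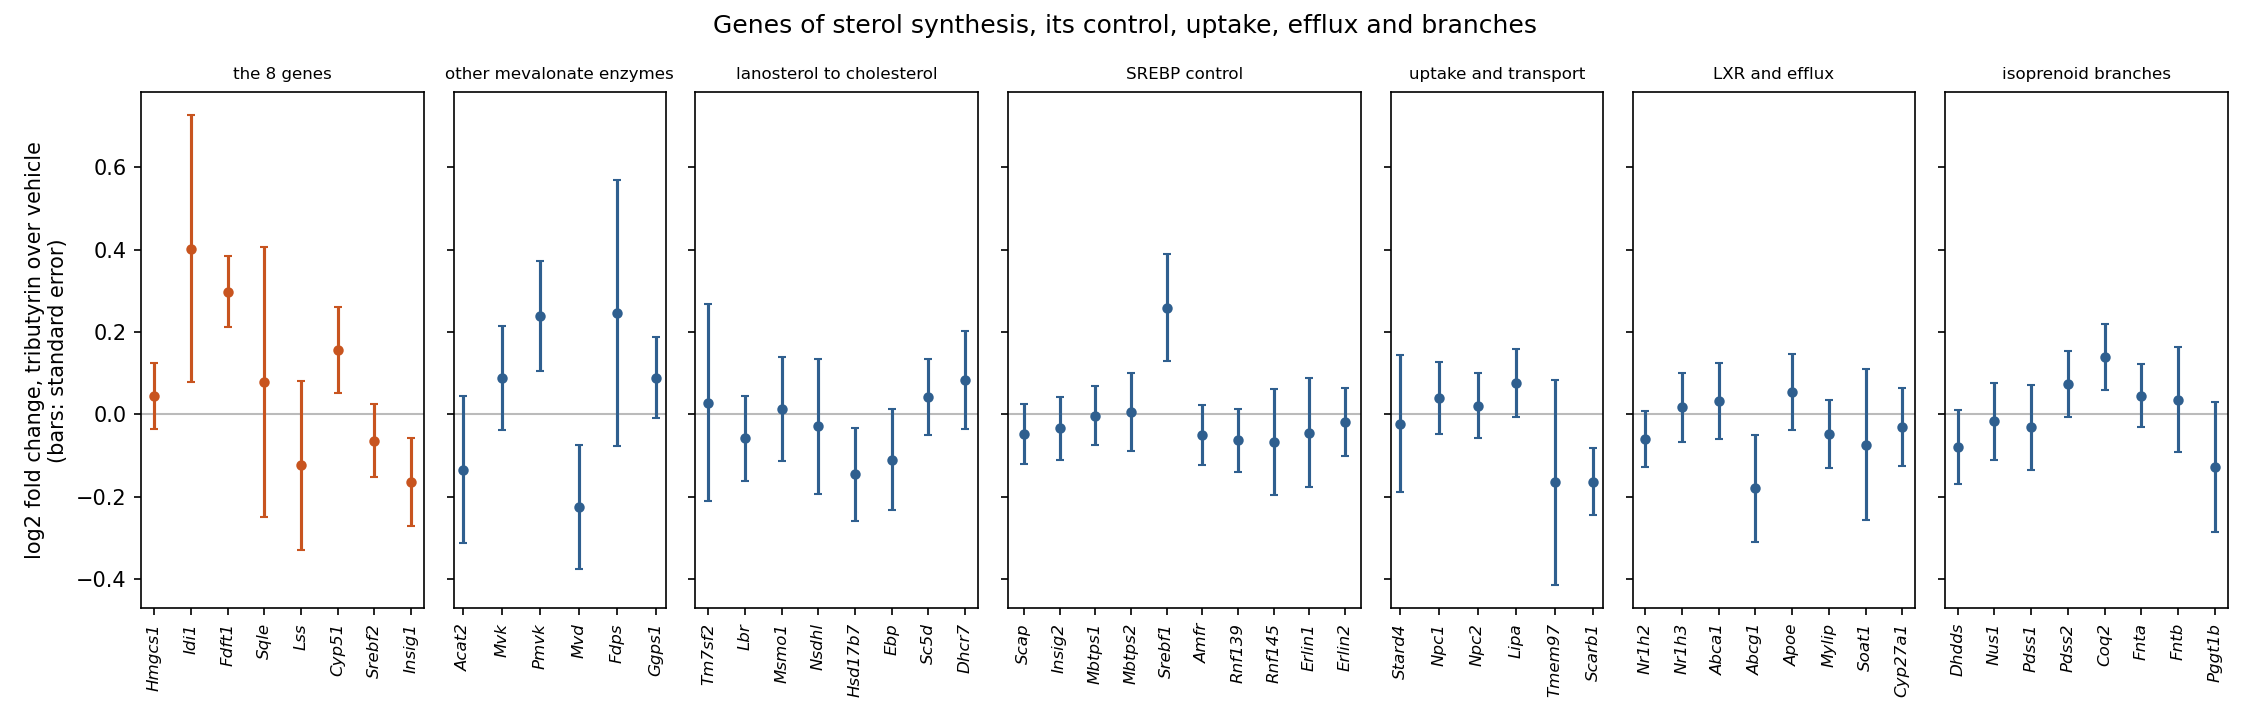
Log2 fold change with its standard error, Tributyrin over vehicle, for the 8 genes (orange) and 46 other tested genes of the sterol network (blue), by group. Blue points lie between -0.22 (*Mvd*) and 0.26 (*Srebf1*), on both sides of 0 in every group.

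Other measures differed between the groups beside *Fdft1*. At an unadjusted edgeR p under 0.05, 1.97% of all tested genes were higher and 2.28% lower. Of the 4 tested atrial markers, 3 were lower at this p, and none passed an adjusted p. The median log2 fold change of these 4 was -1.90, and their sum was high in vehicle mice 1 and 2. Of the 8 cardiomyocyte markers, 3 had an unadjusted edgeR p under 0.05 in the higher direction, *Pln*, *Tnnt2* and *Tnni3*, with log2 fold changes of 0.24, 0.23 and 0.21, and 1 in the lower direction, *Actc1*, at -0.21, none of them past an adjusted p. *Pln*, the gene of phospholamban, was at 36328, 34767 and 33891 with vehicle and at 43345, 37123 and 43375 with Tributyrin. Mitochondrial transcripts took 26.5%, 23.6% and 24.1% of counts with vehicle and 27.7%, 25.9% and 28.8% with Tributyrin, and the groups overlapped. Of the 5 fibroblast markers, *Col1a1* and *Lum* had lower values, with log2 fold changes of -0.46 and -0.31 and unadjusted edgeR p of 0.0224 and 0.00257. The others did not share this: *Pdgfra*, *Dcn* and *Tcf21* were at -0.0074, 0.0051 and 0.067. The summed levels overlapped, 17123 to 18110 with vehicle and 15676 to 18355 with Tributyrin. The part of these measures in the *Fdft1* values was not tested.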

How the data were processed

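Heart ventricle RNA libraries of 6 mice were grouped by their labels. According to the study's methods, reads from a stranded mRNA kit were sequenced single-end, and the submitters' processing notes name cutadapt 1.13, STAR, HTSeq 0.6.1p1, DESeq2 1.14.1 and mm10. Adapters, poor reads and rRNA reads were removed before alignment. The authors deposited whole-number counts of reads per Ensembl gene, not normalized. Not given in the sources used here were the annotation release, the version of STAR and whether reads were counted by strand. Symbols and positions came from GENCODE M21 (GRCm38), which matched 54165 of 54232 identifiers. Totals per library were 20369746 to 32734485 counts, and no 2 libraries agreed within sampling noise (chi-square per degree of freedom 6.67 to 28.2).

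Groups were compared with edgeR 4.0.16 in R 4.3.3 (quasi-likelihood test, TMM scaling, filterByExpr with minimum count 10 and minimum total 15, Benjamini-Hochberg adjustment, FDR 10%, with 0 genes also at 5%), checked on simulated data. DESeq2 1.42.0 gave size factors for normalized counts and, like limma 3.58.1, an alternative. Single values were compared with two-sided exact permutation tests. Named were all 8 genes, the highest and lowest tested gene of each list, any with an unadjusted p under 0.05, and the 5 genes most alike over 6 mice. Some genes that are counted in the lists are not reported here by name. Members and lists were chosen with earlier results of these data known. Figures used Python 3.11.15 with matplotlib 3.10.9.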

Additional observations from a re-analysis of the deposited data

How the results depend on the processing

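By edgeR 0 genes passed an FDR of 10%, and this count stayed at 0 with other scalings, a mean CPM of at least 5, limma-voom and a robust prior, but was 167 with no filter on low counts, 11 with DESeq2 and 0 to 3 with a mouse left out. The median log2 fold change of the 8 genes was -0.0092 with library size alone, a scaling that moved the median of all genes to -0.074, and with a mouse left out it ran from -0.017 (without Tributyrin mouse 1) to 0.109 (without Tributyrin mouse 3). Leaving out vehicle mice 1 and 2 together, an alternative chosen after seeing the data, gave a median of 0.017, with 0 of the 8 genes at an unadjusted p under 0.05 and 5 whose groups did not overlap, where 46.4% of all genes tested did not with 1 mouse against 3. That fit assumes that the lone vehicle mouse varies like the others. With a mouse left out, 1 to 2 of the 8 genes had an unadjusted p under 0.05 and 2 to 5 were apart, the highest of both without vehicle mouse 1, where 4.9% of all genes had such a p and 19.6% were apart, against 8.91% with all mice. Over the mice left out, 15.4% to 27.2% of all genes were apart, so these counts are not comparable with the 2 genes apart among all 6 mice. With library size alone 1 was apart, against 11.5% of all genes. The sign turned for *Hmgcs1* with library size alone (-0.026, a difference of -13.2 normalized counts), for *Sqle* with a mouse left out (-0.12 to 0.31, without vehicle mouse 1, Tributyrin mouse 1 or Tributyrin mouse 2, differences of -3.31 to 7.76) or both vehicle mice left out (-0.059), and for *Lss* without vehicle mouse 1 (0.0013, range from -0.26). The cause was not tested. No other value of the 8 genes turned its sign, and no gene of the 8 passed an FDR of 10% in any of these fits, the smallest adjusted p being 0.224, for *Fdft1* without the filter.

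The deviations of same-numbered mice had correlations of 0.21, 0.037 and 0.015, where differently numbered mice had -0.19 to 0.15. Of the 6 libraries, 4 were closest to their own number. With 3 mice per group these values cannot decide whether the numbers pair the mice. With the replicate block 2 genes passed 10%, and *Fdft1* had a log2 fold change of 0.29 with an adjusted p of 0.594. Depth limits *Idi1*, *Sqle* and *Lss*, with 15 to 73 reads per library.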
